A study of Mus musculus with 18 samples.

Results

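To describe how brown and subcutaneous white fat of obese mice differed, RNA sequencing libraries of brown adipose tissue (BAT) were compared with libraries of inguinal white adipose tissue (iWAT), the fat pad under the skin of the groin. Each depot gave 3 wildtype (WT) libraries, labelled WT-1 to WT-3, which are 6 of the 18 libraries of the series. Both groups were WT for caspase-6 (Casp6), the gene removed in the mutant mice of the series, whose libraries were not used here. According to the methods of the study the mice were male littermates from crosses of heterozygous parents on the C57BL/6J background. They were 10 to 14 weeks old when a high fat diet (HFD, 60% fat) was begun, stayed on it for 12 weeks, and were fasted for 10 h before tissue collection. Genotype, sex and diet were therefore shared, the depot differed, and no lean mouse was among the 6 libraries. The labels do not say whether a BAT and an iWAT library of the same number came from the same mouse, and any handling that went with the depot cannot be told apart from the depot. The 2 tables of counts shared 25124 genes, of which 51 genes on chromosome Y and 1888 genes listed with a different transcript in each table were left out. Of the 23185 genes that remained, 17663 had a read in at least 1 library and 13274 had enough reads to be tested.

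Brown adipocytes carry many small lipid droplets and dense mitochondria, and they turn fatty acids and glucose into heat. Noradrenaline from sympathetic nerves binds beta-adrenergic receptors, cyclic AMP rises, triglyceride is broken down, and the freed fatty acids both fuel and open uncoupling protein 1 (UCP1), which lets protons re-enter the mitochondrial matrix without making ATP. White adipocytes carry one large droplet, store energy as triglyceride and secrete hormones such as leptin and adiponectin. The interscapular brown pad and the inguinal pad also arise from different parts of the embryo, and the Hox genes, which record position along the body axis, keep different patterns in them.

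Levels are given as CPM, the counts of a gene scaled to a common library size, after correction by the trimmed mean of M-values (TMM), always in the order WT-1, WT-2, WT-3. A log2 fold change (log2FC) is BAT over iWAT, with its standard error (SE). Genes were tested with edgeR's quasi-likelihood method and called higher or lower if they changed by 1.5-fold or more with an adjusted p under 0.05. CPM is not divided by transcript length, so CPM was compared between depots for one gene and not between genes. In whole tissue, fewer cells of a type and less RNA per cell cannot be told apart.

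The BAT libraries held 7803108, 11381959 and 9751802 counts and the iWAT libraries 16506034, 16680043 and 17696904, so the iWAT values were the more precise. The biological coefficient of variation was 0.129 in iWAT and 0.338 in BAT. BAT WT-2 stood apart by its muscle genes. Skeletal muscle genes summed to 217.5, 44367 and 1952 CPM in BAT and to 229.2, 104.6 and 211.1 CPM in iWAT. Most of the iWAT sum was 1 gene, the actin Acta1, with 3130, 1099 and 2973 counts in iWAT. It had 95, 107683 and 2807 counts in BAT, so the similar sums of BAT WT-1 and iWAT came from different genes. The muscle creatine kinase Ckm stood at 4.41, 3684 and 157 CPM in BAT and had no count in any iWAT library, and Myh7, the slow myosin heavy chain, was also at 0 in all 3 iWAT libraries. Of 15 muscle markers tested, 1 was called, Myh4, and it lost its call without any one of the iWAT libraries. Without BAT WT-2, 6 of the 15 were called higher in BAT (median log2FC 6.6). With all libraries, 13 of the 15 had every BAT library above every iWAT library, which held for 29.2% of all genes tested. BAT WT-2 also had the highest sums of B cell genes (108.6 CPM against 11.89 and 9.631 in the other BAT libraries) and of T cell genes (123.3 CPM against 21.15 and 17.71). BAT WT-3 carried a smaller muscle signal. The counts of genes in each list were therefore also computed without BAT WT-2, and both values are given where a count moved by 2 genes or more. The part of muscle or lymphoid RNA in any single difference was not tested.

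**Figure D1:**
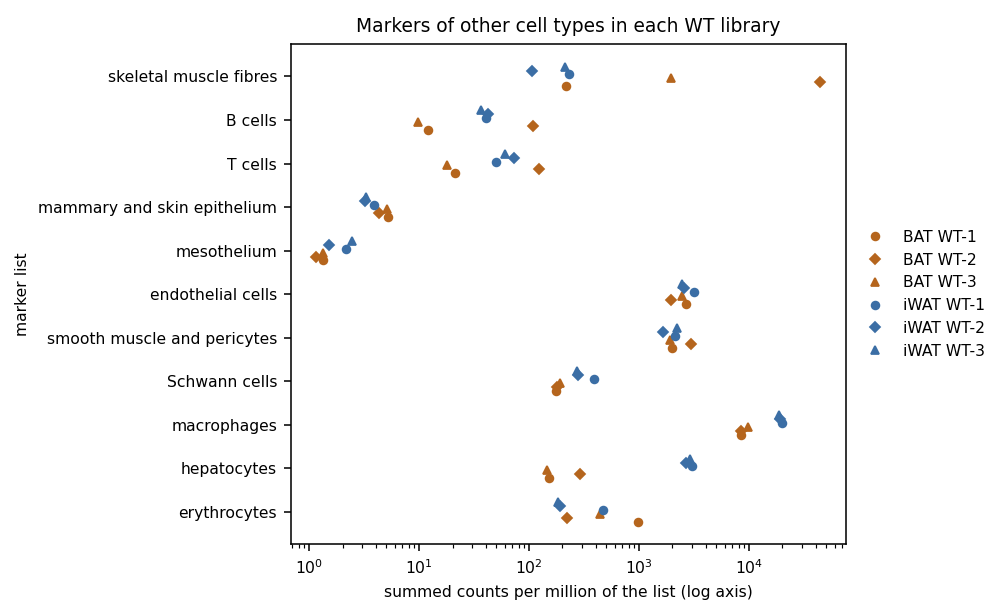
Summed CPM (log axis) of the marker genes of each other cell type in the 6 libraries, BAT in orange and iWAT in blue, with the marker shape giving the library number. Skeletal muscle reached 44367 CPM in BAT WT-2 against 104.6 to 229.2 CPM in iWAT, and B cell and T cell genes were also highest in BAT WT-2. Most of the muscle sum in iWAT was Acta1, and most of the macrophage sum in every library was Lpl.

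Other cell types differed less, or in the other direction. Endothelial genes summed to 2652, 1934 and 2468 CPM in BAT and to 3148, 2534 and 2466 CPM in iWAT, and 3 of 16 were called lower in BAT with 0 higher. Without BAT WT-2, 2 were lower and 4 higher (Emcn, Flt1, Kdr and Rgcc, log2FC 0.62 to 0.74), so the list had no steady direction. Called lower with and without that library were Plvap, the diaphragm protein of fenestrated capillaries (log2FC -2.18), and Vwf, von Willebrand factor (log2FC -1.57). Smooth muscle and pericyte genes had 3 of 11 higher and 3 lower (median log2FC -0.36). Acta2, smooth muscle actin, was among the lower ones (log2FC -3.03). Rgs5, a pericyte gene, was among the higher ones, at 1325, 845 and 1168 CPM in BAT against 441, 353 and 394 CPM, and Mcam among the lower ones, at 117, 161 and 104 CPM against 519, 529 and 452 CPM. Genes listed as hepatocyte markers summed to 149.9, 289.8 and 144 CPM in BAT and to 2993, 2666 and 2863 CPM in iWAT. Nearly all of that sum was Trf, transferrin, which fat also makes, at 2778, 2550 and 2659 CPM in iWAT, while Alb, albumin, stood at 12.7, 8.34 and 32.2 CPM there.

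Of the 13274 genes tested, 39.3% were called: 2567 were higher in BAT, which is 19.3%, and 2647 were lower, which is 19.9%. These shares of higher and lower genes are the ones to set beside the counts of each list below. The share of calls that were higher was 49.2% with TMM and 40.0% when libraries were scaled by total counts, which moved the median log2FC of all genes from 0.01 to -0.11. Without BAT WT-2, 13760 genes were tested, 20.5% were higher and 23.1% lower, 2413 of the 2567 and 2525 of the 2647 were still called, and 0 changed sign. The 3 libraries of one depot lay entirely above those of the other for 7827 genes, 59% of those tested, with BAT above for 3879 genes (29.2%) and BAT below for 3948 genes (29.7%). The changes were often large. A fold change of at least 4 was seen in 504 of the genes called higher and 511 of those called lower, and a fold change of at least 32 in 58 and 23. Genes called higher made up 45.1%, 36.0% and 41.1% of the counts of the BAT libraries and 13.4% to 13.7% of those of the iWAT libraries.

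The labelled depots were checked first against the genes that define them. Ucp1, the uncoupling protein of brown fat, stood at 11094, 4708 and 6589 CPM in BAT and at 3.07, 2.24 and 1.31 CPM in iWAT, a 3375-fold difference (log2FC 11.72, SE 0.57, adjusted p = 2e-05). Lep, leptin, was at 400, 547 and 342 CPM in BAT and at 3419, 3043 and 3582 CPM in iWAT, 7.79-fold lower in BAT (log2FC -2.96, SE 0.21, adjusted p = 2.8e-05). Casp6 itself was at 21.3, 12.1 and 15.4 CPM in BAT and at 20.6, 20.4 and 16.4 CPM in iWAT, and it was not called (log2FC -0.24, SE 0.22, adjusted p = 0.40). All 6 libraries held Casp6 transcripts, and each set of libraries carried the genes of its labelled depot.

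The start regions of 4 genes from the sets described below are shown so that the letters can be read beside the values. Ucp1 had the widest fold change of the brown set. Dio2 held the only searched motif found among these genes. Cox7a1 and Cox7a2 are a pair of cytochrome oxidase subunits whose shares of their family trade places between the depots. Each sequence is the RefSeq window from 250 bases before to 50 bases after the start on mouse build GRCm38.p6, written 5′ to 3′ on the strand of the gene, with the cyclic AMP response element TGACGTCA in capitals where it occurs.
Ucp1: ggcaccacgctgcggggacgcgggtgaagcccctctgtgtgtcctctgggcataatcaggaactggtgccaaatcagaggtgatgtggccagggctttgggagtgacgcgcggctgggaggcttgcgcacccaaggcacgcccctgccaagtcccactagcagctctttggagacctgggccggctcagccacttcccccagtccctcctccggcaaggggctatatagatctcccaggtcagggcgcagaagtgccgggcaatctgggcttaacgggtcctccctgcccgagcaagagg
Dio2: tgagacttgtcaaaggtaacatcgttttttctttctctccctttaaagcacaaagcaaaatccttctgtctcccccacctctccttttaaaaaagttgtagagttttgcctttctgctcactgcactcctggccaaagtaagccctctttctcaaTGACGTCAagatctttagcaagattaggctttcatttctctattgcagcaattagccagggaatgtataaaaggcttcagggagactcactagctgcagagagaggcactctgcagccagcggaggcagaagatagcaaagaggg
Cox7a1: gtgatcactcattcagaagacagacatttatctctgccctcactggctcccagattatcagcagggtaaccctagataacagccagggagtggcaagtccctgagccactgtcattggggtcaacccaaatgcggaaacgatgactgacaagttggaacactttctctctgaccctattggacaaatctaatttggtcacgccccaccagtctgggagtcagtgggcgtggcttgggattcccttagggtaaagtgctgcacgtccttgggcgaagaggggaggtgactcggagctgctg
Cox7a2: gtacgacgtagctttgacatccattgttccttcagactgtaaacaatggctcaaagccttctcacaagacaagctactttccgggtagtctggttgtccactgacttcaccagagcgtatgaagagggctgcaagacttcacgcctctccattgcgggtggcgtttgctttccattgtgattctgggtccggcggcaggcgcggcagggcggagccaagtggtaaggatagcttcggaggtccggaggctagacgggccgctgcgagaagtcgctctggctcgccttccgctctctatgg
The windows lie at chr8:83290098-83290397 (plus strand, Ucp1), chr12:90738989-90739288 (minus strand, Dio2), chr7:30183921-30184220 (plus strand, Cox7a1) and chr9:79759804-79760103 (minus strand, Cox7a2). Cox7a2, the form found in most tissues, had 20 CG pairs in its window and Cox7a1, the heart and muscle form, had 7, while Ucp1 had 15 and Dio2 had 3. TGACGTCA was searched on both strands (it is its own reverse complement) and was found in the Dio2 window, with its first base at -95 from the start. It was present in 588 of 32851 windows, 1.79%, and in 339 of the 10308 tested genes with a window, 3.29%. Among thermogenic genes with a window, 2 of 21 held it, Dio2 and Clstn3, and among respiratory chain and ATP synthase genes 5 of 63 did (Ndufa10, Ndufa11, Ndufb2, Uqcrfs1 and Cycs). The NRF1 motif GCGCATGCG occurred in 389 of the 10308 (3.77%) and in 7 of the 63, which were Ndufa8, Ndufa11, Uqcrc1, Uqcr11, Cox6a1, Cycs and Atp5k. TCAAGGTCA, the ERR motif, occurred in 32 of the 10308 (0.31%) and in 2 of the 63 (Sdhd and Atp5g3). Of the 21 thermogenic genes, 1 held the NRF1 motif and 0 the ERR motif. Of 15 citrate cycle genes, 1 held TGACGTCA, 0 the NRF1 motif and 0 the ERR motif. Of 23 genes of mitochondrial fatty acid oxidation, the counts were 0, 3 and 0 in the same order. These are counts of letters in short windows and say nothing about binding in these tissues.

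The genes of the thermogenic brown adipocyte moved together and by large amounts. Of 32 listed genes, 26 were tested, 23 were higher in BAT and 0 lower, with a median log2FC of 4.53. All 23 were also called without BAT WT-2. After Ucp1, the widest difference was in Fabp3, a fatty acid binding protein of heart and brown fat, at 641, 390 and 474 CPM in BAT and 0.361, 0.121 and 0.0569 CPM in iWAT, 2674-fold higher (log2FC 11.38, SE 0.47). Cidea, a lipid droplet protein that is a classical brown fat marker, was at 2306, 996 and 1998 CPM in BAT and 12, 12.4 and 6.94 CPM in iWAT, 169-fold higher (log2FC 7.40, SE 0.45). No BAT library overlapped an iWAT library for these genes, and within BAT the WT-2 library was the lowest for each of them. Dio2, the deiodinase that makes active thyroid hormone inside the cell, was at 55.7, 65.0 and 93.5 CPM in BAT and 0.422, 0.786 and 0.512 CPM in iWAT, 123-fold higher (log2FC 6.94, SE 0.31). Elovl3, a fatty acid elongase induced in brown fat by cold, was at 84.9, 35.6 and 101 CPM in BAT and 1.45, 1.63 and 1.31 CPM in iWAT, 50.2-fold higher. Letmd1, a mitochondrial protein of brown fat, was at 1144, 546 and 951 CPM in BAT and 46.5, 48.4 and 48.2 CPM in iWAT. S100b, a secreted protein that promotes sympathetic innervation of brown fat, was at 481, 199 and 344 CPM in BAT and 13.9, 13.9 and 8.82 CPM in iWAT (log2FC 4.81). Clstn3, whose adipocyte product acts on lipid droplets, was also higher (log2FC 2.51), as was Kcnk3, a potassium channel (log2FC 1.64).

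The regulators of the brown program were less uniform than its products. Ppara, the nuclear receptor for fatty acid oxidation genes, was 40.6-fold higher in BAT, at 767, 560 and 961 CPM against 17.7, 22.4 and 16.2 CPM (log2FC 5.34, SE 0.27, adjusted p = 1.5e-05). Ppargc1a, the coactivator PGC-1alpha that drives mitochondrial gene expression, was at 102, 68.3 and 91.4 CPM in BAT and 8.19, 6.47 and 4.95 CPM in iWAT, 13.3-fold higher (log2FC 3.74, SE 0.24). Esrra, the estrogen-related receptor that works with it, was 4.78-fold higher (log2FC 2.26, SE 0.21). In contrast, several transcription factors known for setting brown identity or its responses were not called. Prdm16 was at 28.0, 35.2 and 44.5 CPM in BAT and at 35.1, 43.5 and 22.4 CPM in iWAT, with overlapping libraries (log2FC 0.10, SE 0.26, adjusted p = 0.78). Irf4, a mediator of the fasting and cold response, was at 3.38, 10.3 and 7.53 CPM in BAT and 9.04, 9.73 and 9.27 CPM in iWAT (log2FC -0.38, adjusted p = 0.39). Zfp516, a cofactor of Prdm16, had a log2FC of -0.44 (adjusted p = 0.091), and without BAT WT-2 it was called lower in BAT (log2FC -0.63, adjusted p = 0.018). Bmp8b was not tested for lack of counts, and Ppargc1b, Ebf2, Esrrg, Gk and Acot11 were left out because their transcripts differed between the tables.

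**Figure D2:**
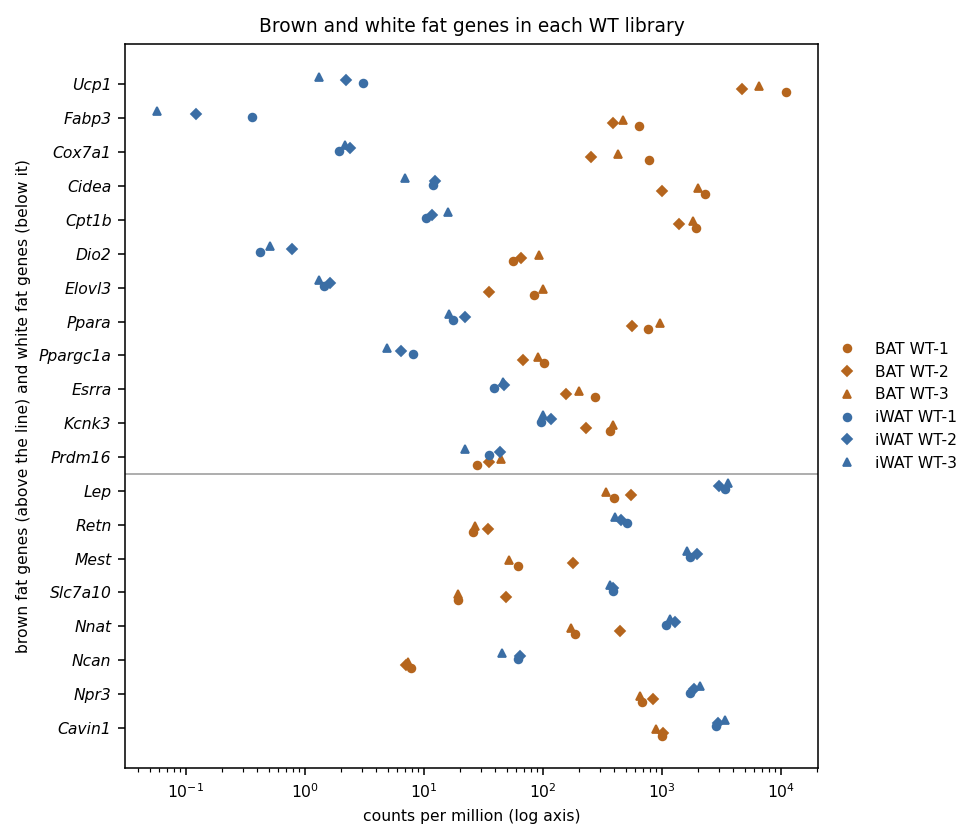
CPM (log axis) of 12 brown fat genes, above the line, and 8 white fat genes, below it, in each library, BAT in orange and iWAT in blue, with the marker shape giving the library number. Ucp1 reached 4708 to 11094 CPM in BAT against 1.31 to 3.07 CPM in iWAT, the libraries of Prdm16 overlapped at 22.4 to 44.5 CPM, and Lep lay at 342 to 547 CPM in BAT against 3043 to 3582 CPM in iWAT.

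To see how far the mitochondrial machinery followed, each complex of oxidative phosphorylation was examined. The respiratory chain passes electrons from NADH and succinate to oxygen through complexes I to IV and pumps protons, and ATP synthase uses the proton gradient. Taken over all complexes, 73 of 78 tested genes were higher in BAT and 0 lower, with a median log2FC of 2.48. Complex I had 35 of 35 tested genes higher, from Ndufa7 at a log2FC of 1.36 to Ndufv1, the NADH-binding subunit, at 1619, 958 and 1286 CPM in BAT and 158, 135 and 148 CPM in iWAT (8.75-fold higher, log2FC 3.13, SE 0.22). For all 35 the BAT libraries lay above the iWAT libraries, which held for 29.2% of all genes tested. Complex II had 4 of 4 higher, with Sdhb, its iron-sulphur subunit, at 1675, 890 and 1219 CPM in BAT and 129, 109 and 109 CPM in iWAT (log2FC 3.45). Complex III had 9 of 9 higher, including the core subunit Uqcrc2 (log2FC 3.16). Complex IV had 14 of 16 higher, with Cox5a at 1348, 687 and 810 CPM in BAT and 102, 107 and 92.4 CPM in iWAT (log2FC 3.24). Cox4i1 was at 2379, 1057 and 1435 CPM in BAT and 367, 315 and 322 CPM in iWAT (log2FC 2.28), while its alternative form Cox4i2 had a log2FC of 0.04.

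Of 14 ATP synthase genes tested, 11 were higher in BAT and 0 lower, with a median log2FC of 2.23. Atp5b, the catalytic beta subunit, was at 11768, 6942 and 9947 CPM in BAT and 1514, 1367 and 1466 CPM in iWAT, 6.59-fold higher (log2FC 2.72, SE 0.22, adjusted p = 4.2e-05), which placed it among the most abundant transcripts of BAT by count. Genes for the membrane ring and for the inhibitor did not share the increase. Atp5g3, a c subunit gene of the ring, was at 320, 358 and 208 CPM in BAT and 292, 270 and 254 CPM in iWAT and was not called (log2FC 0.12). Atp5g1, another c subunit gene, was at 1.62, 15.9 and 1.11 CPM in BAT and 3.86, 4.05 and 2.96 CPM in iWAT and was called lower in BAT only when BAT WT-2 was left out. Atp5g1, Atp5g2, Atp5l, Cycs, Cox7c and Ndufb4 have near-identical copies elsewhere in the genome that can share their reads, so their low counts are uncertain. Atpif1, the inhibitor of ATP synthase, was at 30.3, 18.6 and 19.7 CPM in BAT and 35.5, 24.6 and 31.6 CPM in iWAT (log2FC -0.42) and was not called.

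The citrate cycle and the pyruvate dehydrogenase complex, which feed the chain, had 16 of 17 tested genes higher and 1 lower (median log2FC 2.65). Sucla2 was at 3002, 1697 and 2413 CPM in BAT and 171, 160 and 149 CPM in iWAT (log2FC 3.89), and Suclg1, its partner subunit of succinyl-CoA ligase, had a log2FC of 3.74. Cs, citrate synthase, was at 3809, 2764 and 3346 CPM in BAT and 579, 556 and 520 CPM in iWAT (log2FC 2.58). The exception was Pcx, pyruvate carboxylase, which refills the cycle and supplies lipid synthesis, at 633, 556 and 711 CPM in BAT and 1120, 1157 and 981 CPM in iWAT (log2FC -0.78). The mitochondrial ribosome, which translates the few proteins encoded by mitochondrial DNA, had 41 of 44 genes higher and 1 lower, but by a smaller amount than the chain (median log2FC 1.24). Its range ran from Mrps35, at 114, 50.1 and 72.1 CPM in BAT and 16.7, 14.4 and 15.6 CPM in iWAT (log2FC 2.33), to Mrps6, at 91.9, 49.7 and 58.6 CPM in BAT and 131, 105 and 117 CPM in iWAT (log2FC -0.82).

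**Figure D3:**
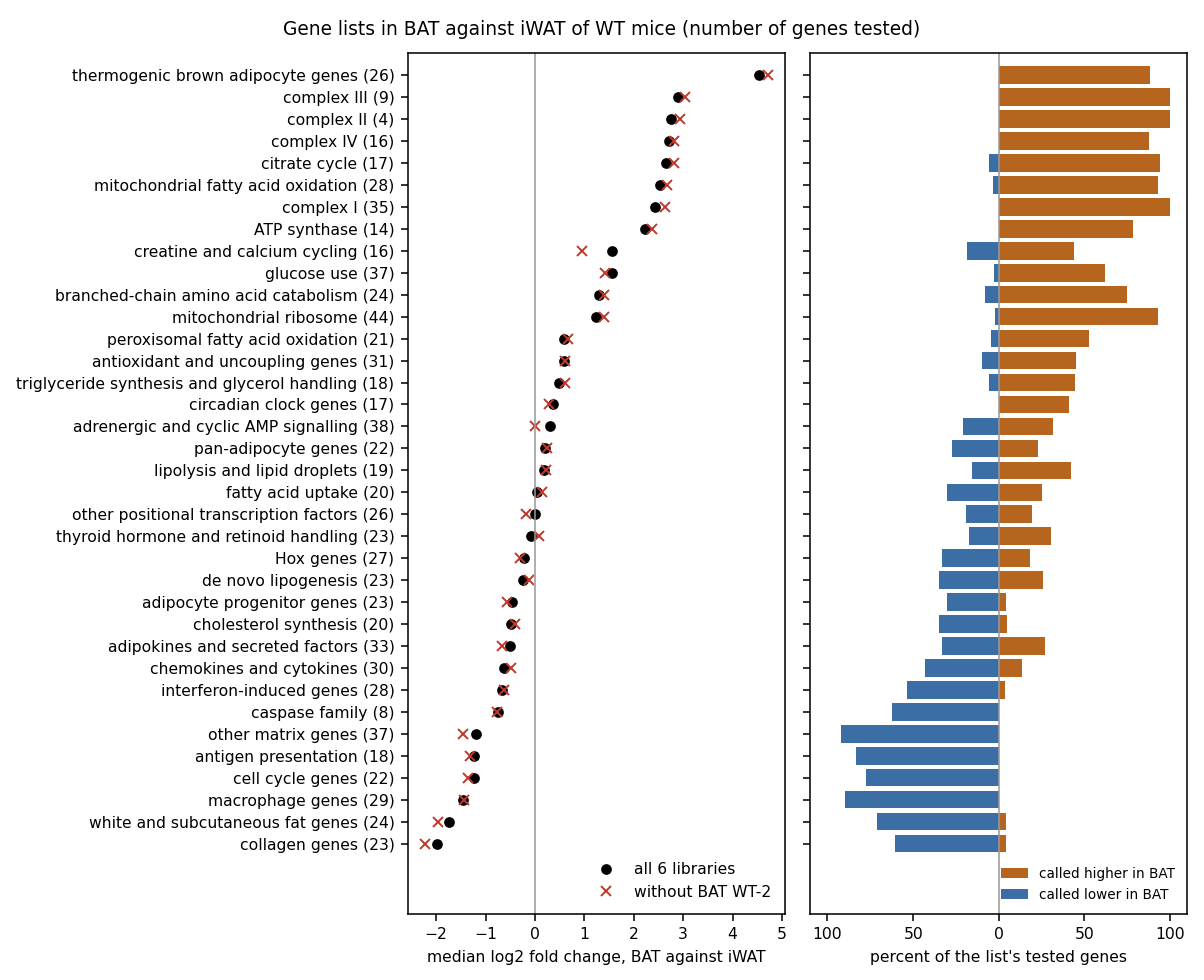
For each gene group, the left panel gives the median log2FC (BAT over iWAT) over its tested genes with all 6 libraries (dots) and without BAT WT-2 (red crosses), and the right panel the percentage of tested genes called higher (orange) and lower (blue) in BAT. Thermogenic genes had the highest median, 4.53, complexes I to IV had medians of 2.43 to 2.89, and collagen genes had a median of -1.99.

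Several of these proteins exist in alternative forms, and the mix of forms differed between the depots. Levels were divided by transcript length here so that members of a family could be set side by side, and each share is of the summed level of its family in that library. Of the VIIa subunits of cytochrome oxidase, Cox7a1 made up 65.6%, 65.7% and 66.6% in BAT and 3.83%, 5.38% and 4.5% in iWAT, where Cox7a2, the other member counted, made up the rest. Cox7a1 itself was at 776, 254 and 431 CPM in BAT and 1.93, 2.42 and 2.16 CPM in iWAT, 224-fold higher (log2FC 7.80, SE 0.50, adjusted p = 3.3e-05). Of the VIII subunits, Cox8b made up 71.2%, 66.6% and 67.1% in BAT and 7.86%, 6.89% and 5.98% in iWAT, and it was 84.7-fold higher (log2FC 6.40, SE 0.48). Although BAT WT-2 had lower levels of Cox7a1 and Cox8b than the other BAT libraries, its shares were close to theirs. The other members had smaller shares in BAT, but their levels lay above those of iWAT in every BAT library. Cox7a2 was at 1128, 370 and 600 CPM per kilobase in BAT and 134, 118 and 127 in iWAT. Cox8a, the other VIII subunit counted, was at 2834, 1171 and 1831 in BAT and 764, 642 and 658 in iWAT.

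At the gate of mitochondrial fatty acid entry, the main form differed between the depots. Carnitine palmitoyltransferase 1 attaches carnitine to long-chain fatty acids at the outer membrane and is inhibited by malonyl-CoA, the muscle form Cpt1b more strongly than the liver form Cpt1a. Cpt1b made up 97%, 95.8% and 96.4% of the per-length level of the family in BAT and 6.99%, 7.89% and 10.1% in iWAT. Its level was 1925, 1403 and 1836 CPM in BAT and 10.4, 11.7 and 16 CPM in iWAT, 136-fold higher (log2FC 7.08, SE 0.27, adjusted p = 8.5e-06). Cpt1a was lower in BAT, at 89.0, 92.5 and 102 CPM against 205, 203 and 212 CPM (log2FC -1.13, SE 0.13, adjusted p = 0.00019). Among uncoupling proteins Ucp1 made up 97.2%, 92.9% and 95.1% of the per-length level in BAT and 0.547%, 0.428% and 0.219% in iWAT, where Ucp2 made up a mean of 92.9%. Ucp2, a carrier found in macrophages and many other cells, was lower in BAT (log2FC -1.67), at 148, 141 and 182 CPM against 494, 461 and 542 CPM, and Ucp3, the muscle form, was higher (log2FC 2.22).

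Lipid droplet proteins and elongases changed their mix as well. Cidea had a mean share of 59.7% of the CIDE family in BAT and 0.418% in iWAT, and Cidec, the member that builds the large droplet of white fat, was lower in BAT, at 1657, 1361 and 1936 CPM against 3722, 3418 and 4172 CPM (log2FC -1.19). Plin5, the perilipin that ties droplets to mitochondria, had a mean share of 13.5% of the perilipins in BAT and 0.503% in iWAT and was 25.0-fold higher (log2FC 4.64, SE 0.26). Plin4, a perilipin of white adipocytes, went from a mean share of 34.8% in iWAT to 8.32% in BAT, with levels of 627, 1440 and 979 CPM in BAT and 4462, 4939 and 4795 CPM in iWAT (log2FC -2.22). Of the elongases, Elovl3 had a mean share of 28.4% in BAT and 0.931% in iWAT and Elovl6, which makes stearate from palmitate, 30.5% and 5.34%, while Elovl5, which extends polyunsaturated fatty acids, had 29.3% and 51.9%. Of the lactate dehydrogenase subunits, Ldhb had a mean share of 34.2% in BAT and 4.98% in iWAT. In some families with a muscle form, BAT WT-2, the library with the highest muscle signal, stood apart from the other BAT libraries. Pfkm made up 8.51%, 71.3% and 12.1% of phosphofructokinase in BAT, and Eno3 made up 1.76%, 81.5% and 13.8% of the enolases.

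**Figure D4:**
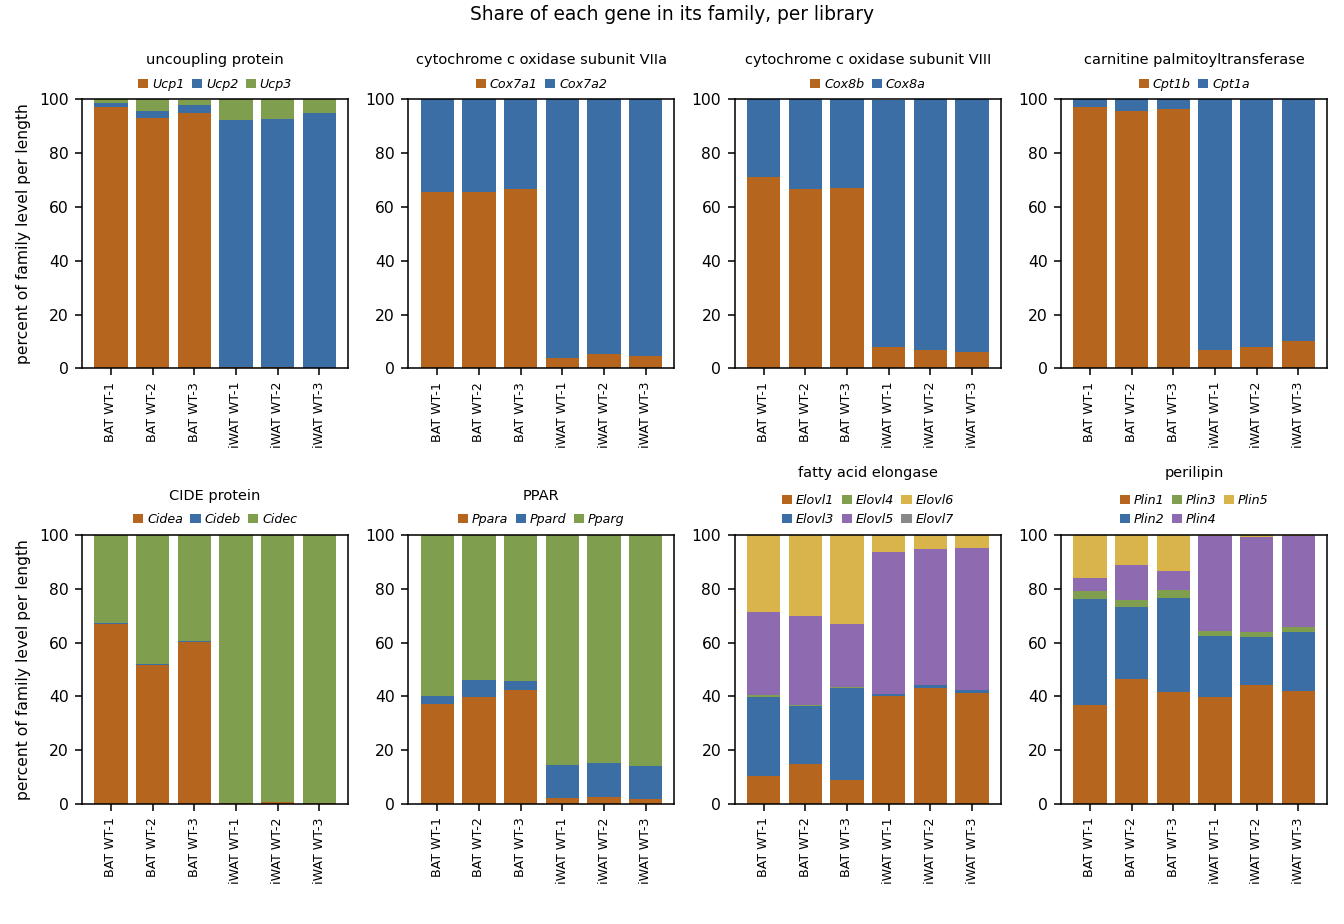
Stacked bars give each member's share (percent) of the summed per-length level of its family in each of the 6 libraries, for 8 families. Cpt1b took 95.8% to 97% of its family in BAT and 6.99% to 10.1% in iWAT, and Cox7a1 took 65.6% to 66.6% and 3.83% to 5.38%. The 3 libraries of a depot had similar mixes in both of these families. Shares varied more within BAT for Cidea (67%, 51.8% and 60.2%) and Plin4 (4.79%, 13% and 7.17%).

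The pathway that burns the fatty acids was higher in nearly every step. Of 28 genes of mitochondrial fatty acid oxidation, 26 were higher in BAT and 1, Cpt1a, was lower (median log2FC 2.52). Acaa2, the last thiolase of the spiral, was at 4052, 2192 and 2980 CPM in BAT and 167, 149 and 175 CPM in iWAT (log2FC 4.23). Acadvl, the very long chain acyl-CoA dehydrogenase, was at 3868, 2310 and 3647 CPM in BAT and 201, 211 and 193 CPM in iWAT (log2FC 4.02). The trifunctional protein subunits Hadhb and Hadha had log2FCs of 4.35 and 3.32, the carnitine carrier Slc25a20 3.59, and the inner membrane transferase Cpt2 2.51. Acsl1, the main acyl-CoA synthetase of fat, changed less (log2FC 0.91). Peroxisomes, which shorten very long chains, had 11 of 21 genes higher and 1 lower (median log2FC 0.59). Abcd3, an importer of acyl-CoA, was at 822, 556 and 742 CPM in BAT and 117, 115 and 109 CPM in iWAT (log2FC 2.64). Its relative Abcd2 went the other way, at 359, 455 and 442 CPM in BAT and 725, 752 and 808 CPM in iWAT (log2FC -0.86).

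Fatty acid synthesis was split instead of shifted. Of 23 genes tested for de novo lipogenesis, 6 were higher in BAT and 8 lower (median log2FC -0.24), with 5 lower when iWAT WT-1 was left out and 6 higher and 6 lower (median -0.11) without BAT WT-2. The higher ones included Elovl6, at 262, 157 and 309 CPM in BAT and 31.3, 24.8 and 24.2 CPM in iWAT (log2FC 3.18). Acacb, the acetyl-CoA carboxylase at the mitochondrial surface whose malonyl-CoA restrains carnitine palmitoyltransferase 1, was at 641, 879 and 1040 CPM in BAT and 148, 147 and 201 CPM in iWAT (log2FC 2.37). Thrsp, a lipogenic protein driven by thyroid hormone, and Mlxipl, the carbohydrate-responsive factor ChREBP, were also higher (log2FC 2.21 and 1.65). Fasn, fatty acid synthase, overlapped at 1779, 1485 and 2976 CPM in BAT and 1969, 2294 and 1551 CPM in iWAT (log2FC 0.10). Scd2, a stearoyl-CoA desaturase, was at 84.7, 87.8 and 112 CPM in BAT and 565, 630 and 410 CPM in iWAT (log2FC -2.49). Scd1, the main desaturase of fat, was at 28901, 21662 and 28690 CPM in BAT and 38803, 43179 and 40011 CPM in iWAT (log2FC -0.62), and this call, like that of Me1, was lost without BAT WT-2 or iWAT WT-2. Slc25a1, the citrate exporter, and G6pdx, which supplies NADPH, were lower too (log2FC -1.0 and -0.83).

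Triglyceride synthesis had 8 of 18 tested genes higher in BAT and 1 lower (median log2FC 0.49). Gpam, the first acyltransferase, was at 755, 708 and 793 CPM in BAT and 178, 239 and 255 CPM in iWAT (log2FC 1.75). Pck1, which makes glycerol 3-phosphate from pyruvate in the fasted state, was at 4230, 4560 and 5555 CPM in BAT and 1605, 1792 and 1755 CPM in iWAT (log2FC 1.48), and Gpd1 gave a log2FC of 1.67. Mogat2, of the monoacylglycerol path, was the gene that was lower (log2FC -1.94). Lipolysis had 8 of 19 genes higher and 3 lower (median log2FC 0.19), and its central enzymes were not called. Pnpla2, the triglyceride lipase ATGL, was at 3340, 2914 and 3332 CPM in BAT and 3033, 2515 and 2852 CPM in iWAT (log2FC 0.19, adjusted p = 0.33), and Lipe, hormone-sensitive lipase, had a log2FC of -0.28. Of the inhibitors and accessory genes, G0s2 was higher (log2FC 1.07). Aspg was higher as well, at 120, 55.4 and 136 CPM in BAT and 1.27, 0.544 and 1.42 CPM in iWAT (log2FC 6.57). A role of Aspg in lipolysis was not tested.

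Fatty acid uptake had 5 of 20 genes higher and 6 lower, shares not far from the 19.3% and 19.9% of all genes, and 8 and 6 without BAT WT-2. Lpl, lipoprotein lipase, was lower in BAT, at 6607, 6944 and 8203 CPM against 15592, 15090 and 13881 CPM (log2FC -1.03, SE 0.15, adjusted p = 0.00077). Slc27a1, Lrp1 and Cav1 were lower by similar amounts (log2FC -1.0, -1.13 and -0.89), whereas Vldlr, the very low density lipoprotein receptor, and Lmf1, which matures lipases, were higher (both log2FC 1.18). Fabp4, the adipocyte fatty acid binding protein, was not called, at 18051, 8905 and 12663 CPM in BAT and 13707, 10657 and 11930 CPM in iWAT (log2FC 0.13).

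Glucose use had 23 of 37 genes higher and 1 lower in BAT (median log2FC 1.55), and without BAT WT-2 these counts were 26 and 3. Ldhb, the lactate dehydrogenase subunit of oxidative tissues, was at 578, 349 and 421 CPM in BAT and 26.6, 23.9 and 25.0 CPM in iWAT, 17.8-fold higher (log2FC 4.16, SE 0.22). Slc16a1, the monocarboxylate transporter MCT1, was at 836, 459 and 498 CPM in BAT and 65.8, 65.4 and 72.2 CPM in iWAT (log2FC 3.14). Slc2a4, the insulin-regulated glucose transporter GLUT4, was at 266, 345 and 257 CPM in BAT and 135, 131 and 123 CPM in iWAT (log2FC 1.16). Hk2, hexokinase 2, was at 314, 399 and 484 CPM in BAT and 109, 172 and 128 CPM in iWAT (log2FC 1.55), and both subunits of the mitochondrial pyruvate carrier were higher (Mpc1 log2FC 1.73, Mpc2 1.67). Pdk4, the kinase that shuts pyruvate dehydrogenase in the fasted state, was also higher, at 3550, 4441 and 3874 CPM in BAT and 410, 366 and 469 CPM in iWAT, 9.53-fold (log2FC 3.25, SE 0.18, adjusted p = 1.9e-05), as was Pdp2, a phosphatase that reopens it (log2FC 2.51). The insulin receptor and signalling genes Insr, Akt2, Irs1 and Irs2 were not called, and Irs1 and Irs2 were called lower without BAT WT-2 (log2FC -0.71 and -1.65). Muscle forms followed BAT WT-2, with Pygm, muscle glycogen phosphorylase, at 6.61, 1458 and 80.6 CPM in BAT.

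Branched-chain amino acids are another fuel of brown fat. Of 24 genes tested, 18 were higher in BAT and 2 lower (median log2FC 1.30). Bckdha, a subunit of the committed dehydrogenase, was at 1039, 549 and 818 CPM in BAT and 207, 192 and 189 CPM in iWAT (log2FC 2.03), and the kinase that inhibits it, Bckdk, was higher as well (log2FC 1.76). Mcee and Pcca, of the propionate branch, had log2FCs of 2.37 and 2.02. The entry steps did not follow. Bcat2, the mitochondrial transaminase, and Slc25a44, the mitochondrial carrier, were not called, and the cytosolic transaminase Bcat1 was lower, at 9.84, 11.9 and 12.7 CPM in BAT and 61.4, 58.8 and 63.1 CPM in iWAT (log2FC -2.40), as was the plasma membrane transporter subunit Slc7a5 (log2FC -1.59).

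The path by which noradrenaline reaches these genes was examined next. Of 38 tested genes of adrenergic and cyclic AMP signalling, 12 were higher in BAT and 8 lower (median log2FC 0.31), or 13 and 6 without BAT WT-2. Among all genes tested, 19.3% were higher and 19.9% lower. Adrb1, the beta-1 adrenergic receptor, was at 62.3, 54.9 and 38.9 CPM in BAT and 5.06, 5.26 and 6.83 CPM in iWAT, 9.07-fold higher (log2FC 3.18, SE 0.23, adjusted p = 2.7e-05). Adrb3, the beta-3 receptor of adipocytes, was at 395, 370 and 444 CPM in BAT and 74.0, 79.9 and 98.0 CPM in iWAT, 4.80-fold higher (log2FC 2.26, SE 0.17, adjusted p = 3.2e-05). Among alpha receptors, Adra1a, which raises calcium, was higher in BAT, at 100, 91.2 and 102 CPM against 28.4, 27.4 and 27.4 CPM (log2FC 1.82). Adra2a, which lowers cyclic AMP, was lower (log2FC -1.78), as was Adra1d (log2FC -0.61). Neither was called without BAT WT-2 or WT-3, Adra2a was also not called without BAT WT-1, and Adra1d lost its call without any one of the iWAT libraries.

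Downstream of the receptors, Gnas, the stimulatory G protein, was at 6036, 3904 and 5146 CPM in BAT and 1333, 1287 and 1187 CPM in iWAT (log2FC 1.99), while the inhibitory G proteins Gnai1 and Gnai2 were lower (log2FC -1.63 and -1.09). The adenylyl cyclases that make cyclic AMP changed in both directions. Adcy5 was at 13.7, 54.8 and 19.4 CPM in BAT and 316, 326 and 359 CPM in iWAT, 11.3-fold lower (log2FC -3.50, SE 0.54, adjusted p = 0.0029), Adcy7 was also lower (log2FC -1.50), and Adcy3 was higher (log2FC 0.98). Phosphodiesterases, which degrade cyclic AMP, were higher in the case of Pde4d and Pde4a (log2FC 1.90 and 1.68). Of the protein kinase A genes, Prkar2b, the regulatory subunit typical of fat, was higher (log2FC 1.12) and Prkaca, a catalytic subunit, was not called (log2FC 0.57) but was called higher without BAT WT-2 (0.67). Akap1, which anchors the kinase to mitochondria, was higher (log2FC 2.39), and Arrb1, which desensitizes receptors, was lower (log2FC -1.18).

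Creatine and calcium cycling are routes of heat production that do not need UCP1. Of 16 tested genes, 7 were higher and 3 lower, and without BAT WT-2 these counts were 5 and 3 and the median log2FC went from 1.56 to 0.96. The genes called higher numbered 4 without BAT WT-3 and 3, 3 and 2 without iWAT WT-1, WT-2 and WT-3. Phospho1, a phosphatase linked to creatine cycling, was at 651, 427 and 695 CPM in BAT and 38.5, 34.4 and 39.2 CPM in iWAT, 15.8-fold higher (log2FC 3.98, SE 0.23). Ckb, the creatine kinase of this cycle, was at 72.7, 36.1 and 56.1 CPM in BAT and 84.3, 60.7 and 72.9 CPM in iWAT and was not called. Both enzymes of creatine synthesis were lower, Gatm with a log2FC of -0.94 that was lost without either BAT WT-1 or WT-3 or iWAT WT-1 or WT-2 (-1.1 to -0.62), and Gamt at 6.17, 6.78 and 4.87 CPM in BAT and 42.7, 30.9 and 35.6 CPM in iWAT (log2FC -2.61). Atp2a2, the calcium pump SERCA2, was at 363, 1307 and 403 CPM in BAT and 190, 186 and 200 CPM in iWAT, and its log2FC of 1.85 became 0.98 without BAT WT-2 and was not called without any one of the iWAT libraries (1.83 to 1.89).

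Hormones and other secreted factors were called in both directions, with 9 of 33 tested genes higher in BAT and 11 lower (median log2FC -0.50). Without BAT WT-2 the counts were 10 and 15. The shares over all genes tested were 19.3% higher and 19.9% lower. Lep is given above. Retn, resistin, was at 25.8, 34.4 and 26.8 CPM in BAT and 514, 453 and 405 CPM in iWAT, 15.7-fold lower (log2FC -3.98, SE 0.19, adjusted p = 1.2e-05). Adipoq, adiponectin, was lower by much less, at 1629, 1073 and 1268 CPM in BAT and 2676, 2582 and 2303 CPM in iWAT (log2FC -0.93, adjusted p = 0.0042). Sfrp5, a secreted inhibitor of Wnt signalling, was at 11.5, 46.4 and 8.86 CPM in BAT and 682, 525 and 722 CPM in iWAT (log2FC -4.84), and Igf1 and Cfd, adipsin, had log2FCs of -2.32 and -1.09. Higher in BAT were Kng2, a kininogen, at 247, 84.4 and 150 CPM against 0.181, 0.181 and 0.626 CPM (log2FC 8.86), Nampt, the enzyme of NAD synthesis that is also secreted, at 442, 266 and 495 CPM against 103, 121 and 116 CPM (log2FC 1.83), and Gdf15, a stress hormone, at 48, 10.8 and 18.2 CPM against 5.36, 3.75 and 7.22 CPM (log2FC 2.22, not called without iWAT WT-1 or WT-2). Nrg4, a growth factor released by brown fat, was at 197, 145 and 200 CPM in BAT and 55.7, 69.8 and 78.4 CPM in iWAT (log2FC 1.41). Ptgds, a prostaglandin D synthase, had counts only in BAT, at 10.4, 3.91 and 8.08 CPM, and was at least 126-fold higher against a limit of 3 counts over the iWAT libraries. Fgf21 was not called.

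Genes of white and subcutaneous fat gave the reverse picture. Of 24 tested, 17 were lower in BAT and 1 higher (median log2FC -1.73), and 20 and 2 without BAT WT-2. The higher gene with all libraries was Ptgds, which had counts only in BAT, as given above. Mest, a gene linked to adipocyte enlargement, was at 62.3, 178 and 52.1 CPM in BAT and 1710, 1969 and 1615 CPM in iWAT, 18.1-fold lower (log2FC -4.18, SE 0.51). Slc7a10, an amino acid transporter at the surface of white adipocytes, was at 19.5, 48.6 and 19.5 CPM in BAT and 390, 388 and 365 CPM in iWAT (log2FC -3.70). For both, as for Nnat at 186, 441 and 171 CPM in BAT and 1076, 1282 and 1161 CPM in iWAT (log2FC -2.14), BAT WT-2 was the BAT library closest to iWAT. Ncan was evenly low, at 7.78, 7.07 and 7.31 CPM in BAT and 62.4, 64.1 and 45.1 CPM in iWAT (log2FC -2.95). Zfp423, a transcription factor that holds adipocytes in the white state, was at 47.3, 54.7 and 52.8 CPM in BAT and 105, 103 and 84.7 CPM in iWAT (log2FC -0.92). Cavin1, needed for caveolae, and Npr3, the natriuretic peptide clearance receptor, were lower too (log2FC -1.66 and -1.38). Tbx15 was not called, at 6.17, 90.5 and 12 CPM in BAT, where the high value fell in the library with the muscle signal, and 14.7, 13.4 and 15 CPM in iWAT. Agt, angiotensinogen, was at 1.17, 6.68 and 0.775 CPM in BAT and 9.82, 7.07 and 14.6 CPM in iWAT and was called lower only without BAT WT-2 (log2FC -3.47). Genes shared by all adipocytes were balanced, with 5 of 22 higher and 6 lower (median log2FC 0.20), or 7 and 6 without BAT WT-2. With all libraries these shares were not far from the 19.3% and 19.9% of all genes tested. Pparg, the master regulator of fat cells, was at 353, 215 and 349 CPM in BAT and 192, 221 and 204 CPM in iWAT, not called with all libraries (log2FC 0.57) and called without BAT WT-2 (log2FC 0.76).

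Hox genes, which record position along the body axis, were called in both directions. They lie in 4 clusters, Hoxa to Hoxd, and low paralogue numbers are expressed toward the head and high ones toward the tail. Of 39 Hox genes, 27 were tested, 5 were higher in BAT, 9 lower and 13 not called (median log2FC -0.23). Over all genes tested, the shares were 19.3% higher and 19.9% lower. All 5 higher genes had paralogue numbers of 5 or less: Hoxa2, Hoxa4, Hoxa5, Hoxc4 and Hoxc5. Among the 15 genes with paralogue numbers 1 to 5, 13 were tested, 5 were higher, 2 lower (Hoxb5 and Hoxd4) and 6 not called. Among the 24 with numbers 6 to 13, 14 were tested, 0 were higher and 7 lower. The cut lies at 5, the highest number among the higher genes. The 0 above it therefore follows from the cut and is no separate support for a pattern by position. Hoxa4 was at 29.2, 22.1 and 19.9 CPM in BAT and 2.71, 2.9 and 3.19 CPM in iWAT, 8.05-fold higher (log2FC 3.01, SE 0.21), and Hoxa5 was at 60.1, 34.9 and 49.3 CPM in BAT and 8.01, 6.53 and 7.0 CPM in iWAT, 6.67-fold higher.

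At the other end of the clusters, Hoxa9 was at 1.32, 0.382 and 0.775 CPM in BAT and 9.16, 12.1 and 11.8 CPM in iWAT, 13.9-fold lower (log2FC -3.80). Hoxa10 had no count in BAT and 17.3, 14.8 and 15.2 CPM in iWAT, at least 138-fold lower against a limit of 3 counts over the BAT libraries. Hoxc10 had 884 counts over the iWAT libraries and 1 over the BAT libraries, a ratio of 459 after scaling (95% exact interval 82.1 to 18136, counting error only). For Hoxc9 the counts were 486 and 3, a ratio of 84 (28.6 to 409). Within the Hoxc cluster the order of levels turned over between neighbours. Hoxc4 and Hoxc5 were higher in BAT (log2FC 1.84 and 1.45), Hoxc6 was at 28.8, 20.8 and 29.6 CPM in BAT and 28.1, 28.3 and 21.7 CPM in iWAT (log2FC 0.02), and Hoxc8 was lower, at 10.3, 21.5 and 24.7 CPM against 77.2, 90.8 and 61.3 CPM (log2FC -2.01). Hoxb8 was lower as well (log2FC -2.02). Without BAT WT-2 the Hox counts were 5 higher and 12 lower, with Hoxb9, Hoxd9 and Hoxd3 added. Hoxd3 was at 1.17, 2.48 and 0.443 CPM in BAT and 3.98, 3.08 and 3.19 CPM in iWAT. It joined Hoxb5 and Hoxd4 as a gene of low paralogue number that was lower in BAT. Several Hox genes have antisense transcripts on the other strand, and whether the counting used strand is not given in the sources used here.

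**Figure D5:**
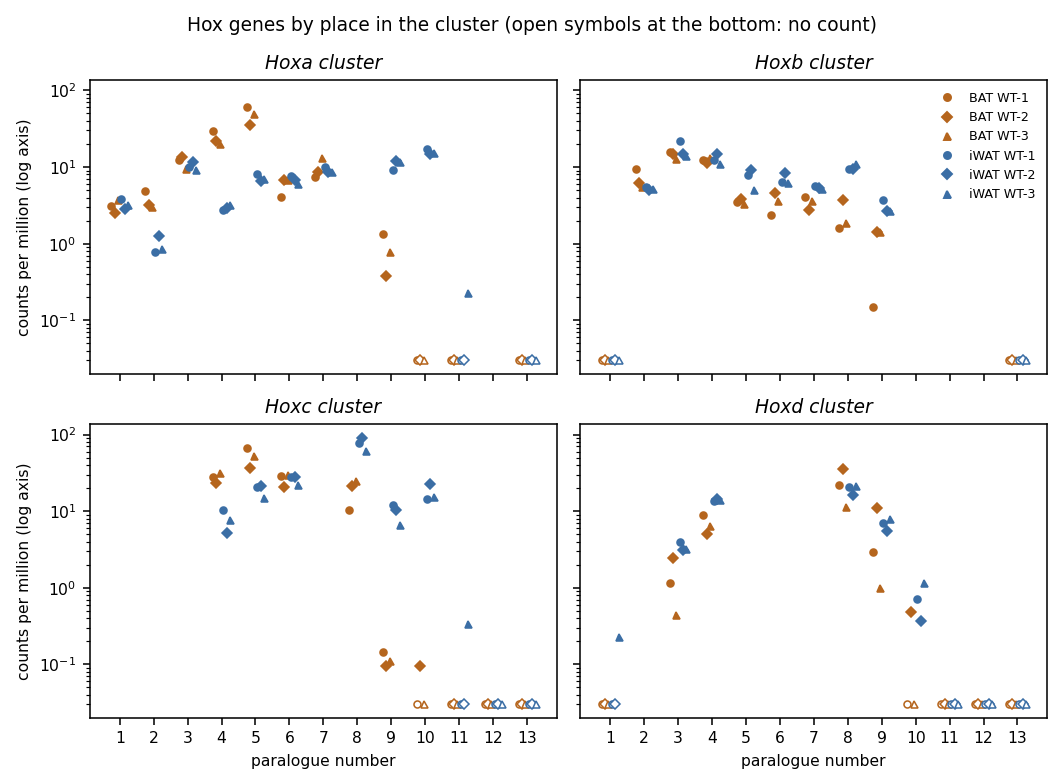
CPM (log axis) of Hox genes against paralogue number, one panel for each of the 4 clusters, BAT in orange and iWAT in blue, with open symbols at the bottom for libraries without a count. Hoxa4 lay at 19.9 to 29.2 CPM in BAT and 2.71 to 3.19 CPM in iWAT, Hoxc6 at 20.8 to 29.6 and 21.7 to 28.3 CPM, and Hoxa10 at 0 in BAT and 14.8 to 17.3 CPM in iWAT.

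Other transcription factors that mark position or lineage had 5 of 26 tested genes higher and 5 lower (median log2FC 0.01), which are shares close to the 19.3% and 19.9% of all genes tested. The lower genes numbered 7 without BAT WT-2, and the higher ones 3 when any one iWAT library was left out. Zic1, a known marker of interscapular brown fat, was at 21.1, 11.7 and 8.97 CPM in BAT and had 1 count in all iWAT libraries together against 348 in BAT, a ratio of 671 (95% exact interval 120 to 26568, counting error only). Its neighbour Zic4 was at 1.32, 0.859 and 0.886 CPM in BAT and had no count in iWAT, at least 17.3-fold higher. Sim2 had 69 counts in BAT and 2 in iWAT, a ratio of 66.5 (17.7 to 560). Tbx5, a factor of the heart and forelimb field, was at 8.37, 7.26 and 7.75 CPM in BAT and 0.602, 2.18 and 2.05 CPM in iWAT (log2FC 2.27). Lower in BAT were Shox2, a limb gene, at 1.32, 7.07 and 6.86 CPM against 18.7, 22.1 and 25.2 CPM (log2FC -2.08, not called without iWAT WT-2 or WT-3), together with Osr1, Prrx1, Prrx2 and Gata6 (log2FC -1.88, -0.68, -2.33 and -1.36). Lbx1, a muscle precursor gene, had 152 counts in BAT and 3 in iWAT, and nearly all of the former lay in BAT WT-2 (14.1 CPM).

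Thyroid hormone and retinoids act with the adrenergic signal in brown fat. Of 23 tested genes of their handling, 7 were higher and 4 lower, and without BAT WT-2 the lower genes numbered 8. Over all genes tested, the shares were 19.3% higher and 19.9% lower. Slc16a10, a carrier of thyroid hormone, was lower (log2FC -0.60). The thyroid hormone receptors Thra and Thrb were not called (log2FC 0.33 and 0.26). Their partners differed by form, with Rxrg and Rxrb higher (log2FC 2.16 and 0.69) and Rxra lower (log2FC -0.92). Nrip1, the corepressor RIP140, was lower in BAT, at 41.4, 60.7 and 58 CPM against 91.9, 157 and 174 CPM (log2FC -1.40).

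Mitochondria that respire fast also make reactive oxygen, which antioxidant enzymes remove. Of 31 tested genes of the antioxidant and uncoupling list, 14 were higher and 3 lower (median log2FC 0.59), with 9 higher when iWAT WT-2 was left out and 16 higher and 4 lower without BAT WT-2. The mitochondrial enzymes Sod2, Prdx3, Txnrd2 and Txn2 had log2FCs of 2.48, 2.28, 2.02 and 1.92, and Gpx3, a secreted glutathione peroxidase, was at 2483, 1686 and 2538 CPM in BAT and 226, 183 and 292 CPM in iWAT (log2FC 3.26). The lower genes were Ucp2, Sod3, the extracellular superoxide dismutase (log2FC -1.37), and Gsta3 (log2FC -2.02). Cat, Nfe2l2 and Hmox1 were not called, but Cat was called higher without BAT WT-2 (log2FC 0.61) and Hmox1 lower without BAT WT-3 (log2FC -1.21). Slc25a4, the heart and muscle form of the adenine nucleotide translocase, was at 600, 1568 and 475 CPM in BAT, and its log2FC of 2.01 became 1.28 without BAT WT-2.

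In each of the 4 immune lists more genes were lower in BAT than higher. Of 29 macrophage genes tested, 26 were lower and 0 higher (median log2FC -1.46). Lpl, the lipoprotein lipase given above among the uptake genes, was on this list and among the lower ones. It made up most of the summed CPM of the list in every library, so that sum is not a measure of macrophages alone. Cd68, a lysosomal macrophage marker, was at 69.6, 51.9 and 55.8 CPM in BAT and 265, 214 and 274 CPM in iWAT (log2FC -2.09), and Adgre1, which encodes F4/80, was at 60.5, 36.5 and 42.7 CPM in BAT and 114, 131 and 156 CPM in iWAT (log2FC -1.52). Genes of lipid-associated macrophages, which gather around dying adipocytes in obesity, were among them. Trem2 was at 35, 15.9 and 17.5 CPM in BAT and 103, 80.9 and 110 CPM in iWAT (log2FC -2.11), and Gpnmb was at 76.1, 109 and 82.9 CPM in BAT and 634, 429 and 591 CPM in iWAT (log2FC -2.63). Cx3cr1, Ccr2 and Lyve1, which mark other macrophage states, were not called, and Lyve1 was called lower without BAT WT-2 (log2FC -1.25).

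Antigen presentation genes had 15 of 18 lower and 0 higher (median log2FC -1.23), both of class I (H2-K1, log2FC -2.11, and B2m, -1.37) and of class II (H2-Ab1, log2FC -1.07, and Cd74, -1.32). The class I genes H2-K1 and H2-D1 are near-identical to other members of their locus, so their split is uncertain. Chemokines and cytokines had 4 of 30 higher and 13 lower (median log2FC -0.63), with 7 lower when BAT WT-3, iWAT WT-2 or iWAT WT-3 was left out and 5 higher and 11 lower without BAT WT-2. Cx3cl1, fractalkine, was higher in BAT, at 48.3, 28.6 and 37.4 CPM against 10.2, 11 and 6.09 CPM (log2FC 2.07), and Il1rn, Ccl6 and Tgfb1 were lower (log2FC -1.79, -1.57 and -1.48). The inflammatory genes Ccl2 and Tnf were not called, Tnf being at 0.881, 0.477 and 0.443 CPM in BAT and 0.964, 1.51 and 1.54 CPM in iWAT, and Il6, Il1b, Ifng and Il10 had too few counts to be tested. Interferon-induced genes had 15 of 28 lower (13 without BAT WT-2) and 1 higher, the latter being Ifi27, at 1497, 605 and 1083 CPM in BAT and 307, 278 and 297 CPM in iWAT (log2FC 1.85).

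Extracellular matrix genes were lower in BAT as a group. Collagens and other matrix genes together had 48 of 60 lower and 1 higher (median log2FC -1.47), or 51 and 2 without BAT WT-2. Col1a1, of the fibrillar collagen I, was at 125, 319 and 184 CPM in BAT and 1279, 1274 and 1233 CPM in iWAT (log2FC -2.59), and Col3a1 was at 594, 690 and 540 CPM in BAT and 2574, 2562 and 2660 CPM in iWAT (log2FC -2.10). Col15a1, a collagen of basement membranes, was at 46.3, 87.8 and 61.2 CPM in BAT and 492, 607 and 453 CPM in iWAT (log2FC -2.99). The exception was Col27a1, at 97.1, 91.0 and 173 CPM in BAT and 12.2, 8.82 and 7.17 CPM in iWAT (log2FC 3.68). Sparc, a collagen-binding matrix protein, was at 2162, 2117 and 1890 CPM in BAT and 8101, 7314 and 7793 CPM in iWAT (log2FC -1.91), and Lox, which cross-links collagen, and Thbs1 were lower too (log2FC -1.87 and -2.72). Sparcl1, Timp3 and Timp4 were not called.

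Adipocyte progenitor genes were less separated than the matrix. Of 23 tested, 1 was higher and 7 lower (median log2FC -0.47), and without BAT WT-2 the counts were 2 and 11. Pdgfra and Ly6a, general progenitor markers, were not called, and neither were Pi16 and Dpp4, of early interstitial progenitors, with Pi16 at 18.4, 108 and 21.1 CPM in BAT. Those last genes were called lower without BAT WT-2. Acta2, given above among the smooth muscle and pericyte genes, was at 72.0, 86.2 and 55.6 CPM in BAT and 631, 279 and 833 CPM in iWAT (log2FC -3.03). Its level is therefore not a measure of progenitors alone. Cell cycle genes had 17 of 22 lower and 0 higher (median log2FC -1.24), 10 of them lower without iWAT WT-1, with Cdk1 at 3.96, 4.39 and 4.21 CPM in BAT and 21.1, 17.1 and 15.2 CPM in iWAT (log2FC -2.08) and Mki67 at 6.9, 10.1 and 11.2 CPM in BAT and 22.9, 24.2 and 21.0 CPM in iWAT (log2FC -1.26).

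Of the caspases, Casp6 was not called, as given above, and 5 of 8 tested were lower in BAT with 0 higher (median log2FC -0.75). Casp1, the inflammasome caspase, was at 7.78, 6.97 and 5.31 CPM in BAT and 23.6, 28.4 and 24.8 CPM in iWAT (log2FC -1.94), and Casp4, Casp12 and Casp8 had log2FCs of -1.06, -1.10 and -0.88. Casp2 was not called. Cholesterol synthesis had 7 of 20 lower (4 without iWAT WT-2) and 1 higher (median log2FC -0.48), the latter being Hmgcs1, at 1013, 827 and 830 CPM in BAT and 455, 495 and 435 CPM in iWAT (log2FC 0.95). Clock genes had 7 of 17 higher and 0 lower, or 6 and 1 without BAT WT-2, when Bhlhe41 lost its call and Cry2 was called lower (log2FC -0.62). Among those called were Hlf, Nfil3, Ciart, Bhlhe40, Nr1d2 and Bhlhe41 (log2FC 0.63 to 2.38), whereas the core genes Arntl, Cry1, Per1, Per2, Per3 and Nr1d1 were not called. Per1 ranged from 20.7 to 169 CPM within BAT, so its libraries were far apart within the depot.

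The genes with the largest changes named few additional pathways. Among the 15 with the highest log2FC at 10 CPM or more in BAT, 6 followed the muscle signal of BAT WT-2: Myh4, A930016O22Rik, Atp2a1, Actn2, Txlnb and Sypl2. Myh4, a fast myosin heavy chain, had 105465 counts in BAT and 1 in iWAT, a ratio of 203277 (95% exact interval 36483 to 8029081, counting error only), and Atp2a1, the muscle calcium pump, was at 9.99, 8365 and 341 CPM in BAT and was not called without BAT WT-2. None of the 6 was called when any one iWAT library was left out. The other members of that set were Ucp1, Fabp3, Cox7a1, Zic1, Kng2, Lgr6, Slc27a2, Slc25a34 and Lncbate10. Lgr6, a receptor for R-spondins, was at 124, 77.1 and 139 CPM in BAT and 0.181, 0.181 and 0 CPM in iWAT, 884-fold higher (log2FC 9.79). Slc27a2, a fatty acid transporter and very long chain acyl-CoA synthetase, was at 231, 164 and 262 CPM in BAT and 0.241, 0.181 and 1.42 CPM in iWAT, 345-fold higher. Slc25a34, a mitochondrial carrier, was at 216, 143 and 119 CPM in BAT and 0.783, 0.907 and 0.739 CPM in iWAT, 195-fold higher (log2FC 7.61, SE 0.30). Lncbate10, a long noncoding RNA of brown fat, had 745 counts in BAT and 2 in iWAT, a ratio of 718 (95% exact interval 198 to 5939, counting error only).

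Among the 15 lowest in BAT were Hoxa10, Hoxc10, Sfrp5 and Alb. Klf14, a regulator of adipocyte size and metabolism, was at 0, 0.859 and 0.221 CPM in BAT and 28.1, 35.3 and 21.2 CPM in iWAT, 67.6-fold lower (log2FC -6.08). Oxtr, the oxytocin receptor, was at 4.85, 13.8 and 2.77 CPM in BAT and 202, 281 and 249 CPM in iWAT, 33.5-fold lower (log2FC -5.06, SE 0.62). Lipf, annotated as gastric lipase, was at 1.03, 1.62 and 0.775 CPM in BAT and 52.4, 52 and 47 CPM in iWAT, 43.0-fold lower. Itgad, an integrin subunit of macrophages (log2FC -4.87), and Lpar3, a lysophosphatidic acid receptor (log2FC -5.25), also belonged to this set, with Folh1, Pramef12, Cdkl4, Fam83d and Trhde. By count, the most abundant transcripts were Scd1, Fabp4, Lpl, Atp5b and Ucp1 in BAT and Scd1, Lpl, Fabp4, Gsn and Car3 in iWAT. Gsn, gelsolin, was at 1825, 3001 and 1744 CPM in BAT and 10984, 10675 and 12164 CPM in iWAT (log2FC -2.36), and Car3, carbonic anhydrase 3, was at 2599, 3994 and 2107 CPM in BAT and 11629, 11452 and 10024 CPM in iWAT (log2FC -1.93).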

How the data were processed

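Polyadenylated RNA of 3 BAT and 3 iWAT libraries of WT mice on HFD was sequenced by the authors, who per the methods of the study aligned reads to mouse genome mm10 with STAR and counted them over exons with HOMER, condensing each gene to 1 transcript. Versions and the use of strand in counting are not given in the sources used here. The authors deposited raw read counts per gene, 1 table for each depot, not normalized. The tables were joined by gene symbol, and chromosome Y genes and genes with a different transcript in each table were left out (4.336% to 6.046% of the counts). Columns of mutant mice were not used. Per the file headers each gene also has its exon length, used for the per-length levels of gene families.

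The main test was edgeR 4.0.16 in R 4.3.3: TMM scaling, the filterByExpr minimum, a robust quasi-likelihood fit of depot, Benjamini-Hochberg adjustment over all 13274 genes, with calls made where the adjusted p was under 0.05 and the change was 1.5-fold or more. DESeq2 1.42.0 and limma 3.58.1 served as alternatives. The steps were tested on simulated data. Gene lists, families and the members were chosen with earlier results of these data known, so they are descriptions and not independent evidence. The text names members of these lists and families, the 15 called genes with the largest log2FC in each direction that reached a mean of 10 CPM in the higher depot without overlap, the 5 genes with the largest share of counts in each depot, and Casp6. Genes with 1 to 3 counts in a depot are given as ratios with exact 95% binomial intervals, and genes at 0 as bounds at 3 counts over the depot. These cover counting error only. Promoter windows came from the RefSeq table of build GRCm38.p6, whose starts equal those listed for the printed genes. The labels do not say that libraries came from separate animals, so p-values measure the spread between these samples. Some genes of the lists are not reported here.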

Additional observations from a re-analysis of the deposited data

How the results depend on the processing

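With 3 libraries in each depot, 2567 genes were called higher and 2647 lower in BAT. Scaling, low count filters, DESeq2, thinning of iWAT to the BAT depth (9311407 counts) and keeping genes with differing transcripts each left both totals within 1.5 times these values. Testing the fold change itself against 1.5 with glmTreat left 1445 higher and 1534 lower, and cut the lower genes of de novo lipogenesis to 2, of chemokines to 5, of the interferon list to 9 and of the cell cycle to 10, and the higher antioxidant genes to 8, since fewer genes can pass a stricter bound. A minimum of 10 counts in every library left 5 lipolysis genes higher. Leaving out 1 library at a time gave 2099 to 2815 genes higher and 2164 to 3177 lower. For lists the range was 5 to 8 lower for de novo lipogenesis, 9 to 16 higher for antioxidant genes, 7 to 12 lower for chemokines and 10 to 16 lower for the cell cycle. Of the named genes, Atp5g1 and Nnt changed sign without BAT WT-2, and over the libraries left out their log2FC ranged from -1.44 to 1.30 and from -1.30 to 2.04. Calls of Bhlhe41, Ciart, Cox7c, G6pdx, Gata6, Hoxb5, Mrps6, Rxrb, Slc16a10, Slc25a1 and Slc25a4 were lost, with the direction kept, when at least 1 library was left out, and Atpif1, Cat, Ccl2, Hmox1, Lyve1, Pfkm, Prkaca, Pygm, Timp3 and Timp4 gained one. Weights for each library in limma, added after the data were seen, gave 2663 higher and 2923 lower.

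Same-numbered libraries of the depots deviated with correlations of 0.091, 0.006 and 0.05, so the numbers were not used to pair them, though a shared mouse remains possible. With a replicate block, 2525 genes were higher and 2643 lower, and the chemokines called lower went from 13 to 8. Without division by length, Cox7a1 had a mean share of 48.3% of its family in BAT and 2.25% in iWAT, Cox8b 58.9% and 4.69%, Plin4 21.2% and 62.2%, and Elovl6 53.6% and 12.5%, and Elovl3 had 15.7% in BAT. BAT libraries were shallower, so a gene missing in BAT is missing at that depth only.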

Other observations

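Nnt, the mitochondrial transhydrogenase, which carries a known deletion in the C57BL/6J strain, was at 10.1, 172 and 8.3 CPM in BAT and at 31.7, 22.2 and 13.3 CPM in iWAT. With all libraries it was not called (log2FC 1.52, adjusted p = 0.43 by edgeR's quasi-likelihood test), and without BAT WT-2 it was lower in BAT (log2FC -1.30, adjusted p = 0.0097). Why BAT WT-2 was high was not tested.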
